A study of Mus musculus with 2 samples.

Results

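The genes described are 10 cytosolic and mitochondrial heat-shock genes of the mouse, out of 32285 features measured, in splenic regulatory T cells (Tregs). They are the inducible HSP70 genes Hspa1a and Hspa1b, the constitutive HSP70 gene Hspa8, the HSP110 gene Hsph1, the HSP40 genes Dnajb1 and Dnaja1, the cytosolic HSP90 genes Hsp90aa1 and Hsp90ab1, and the mitochondrial chaperonin genes Hspd1 and Hspe1. The members were chosen by name, and the choice was made with earlier results of these libraries in view, in which Hspa1a and Hspa1b had been among the leading genes of a small group of resting Treg-like barcodes. Their levels are therefore given as a description, without a test. All 10 members were found in the feature list and all 10 passed the minimum of 200 UMIs over both libraries.

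Tregs are the Foxp3-expressing T cells that restrain immune responses. Cells labelled YFP+ 7AAD-, and in the study's methods also CD4+, had been sorted from spleens of 7-day-old C57BL/6J mice and profiled by droplet single-cell RNA sequencing, in which each transcript molecule is counted once by its unique molecular identifier (UMI) and each droplet carries a barcode. WT and KO mice gave 1 library each. KO mice were Zfp335 fl/fl Foxp3-Cre, in which the Cre recombinase is driven by Foxp3 and so deletes the floxed gene in Foxp3-expressing cells. The study describes its WT mice as Foxp3Cre animals, so both groups carried the Cre and the YFP reporter, and the number of mice per library is not given in the sources used here. With 1 library per genotype, genotype, animal and library cannot be told apart, and no p-value is given. Every interval below is a 95% interval that covers counting error only.

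Heat-shock proteins are chaperones that bind unfolded or newly made proteins. HSP70 binds and releases its clients under the control of HSP40 partners and of HSP110, which exchanges its nucleotide, and HSP90 acts later on signalling proteins and receptors. HSP60 (Hspd1) and HSP10 (Hspe1) form the folding chamber of the mitochondrial matrix. Many of these genes are switched on by heat shock factor 1, which binds repeats of the unit GAA in alternating orientation, and Hspa1a and Hspa1b are the classical inducible targets, almost silent in unstressed cells and also raised when tissue is dissociated. Hspa8 and Hsp90ab1 are transcribed constitutively.

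Only barcodes with 300 genes or more, and with mitochondrial genes taking 5% of UMIs or less, were used. They numbered 8053 of 14524 in WT and 13767 of 18134 in KO. The median depth was 5061 UMIs in WT and 2713 in KO, so shares of barcodes were compared after thinning. Zfp335 itself gave 435 UMIs in WT and 58 in KO, a KO to WT ratio of 0.125 (0.0936 to 0.165), in the direction of the labels. In all, 29 barcodes kept in one library were also kept in the other. Clustering without the members gave 16 clusters. Of these, 11 had T cell gene levels above the limit set for the T lineage (7518 WT and 12975 KO barcodes), clusters 10 and 11 were erythroid-like, 13 and 14 neutrophil-like and 15 B cell-like, so the libraries also held barcodes that go against the Treg label and the CD4+ YFP+ gate.

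The upstream sequences were searched for exact adjacent heat-shock units. Single or imperfect units were neither counted nor marked. RefSeq promoter windows of the 250 bases before the annotated start (GRCm38.p6) were found for 7 of the members, and Hspa8, Hsp90aa1 and Hsp90ab1 are named only. The windows of 4 members are printed 5′ to 3′. Those of Hspa1a, Hspa1b and Hsph1 are shown because these genes set a few barcodes apart in the results. That of Hspe1 is shown because it holds the longest run of exact units. Capitals mark exact adjacent heat-shock units.
Hspa1a (chr17:34972157-34972406, minus strand): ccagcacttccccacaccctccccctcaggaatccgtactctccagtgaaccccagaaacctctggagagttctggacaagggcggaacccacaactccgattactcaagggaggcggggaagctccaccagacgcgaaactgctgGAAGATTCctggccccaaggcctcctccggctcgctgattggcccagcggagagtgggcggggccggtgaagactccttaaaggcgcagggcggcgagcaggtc
Hspa1b (chr17:34959239-34959488, minus strand): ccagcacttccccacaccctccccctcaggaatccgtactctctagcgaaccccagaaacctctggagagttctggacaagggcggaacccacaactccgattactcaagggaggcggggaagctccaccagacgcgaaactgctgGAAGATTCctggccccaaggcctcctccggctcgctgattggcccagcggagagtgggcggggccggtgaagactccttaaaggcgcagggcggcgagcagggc
Hsph1 (chr5:149636337-149636586, minus strand): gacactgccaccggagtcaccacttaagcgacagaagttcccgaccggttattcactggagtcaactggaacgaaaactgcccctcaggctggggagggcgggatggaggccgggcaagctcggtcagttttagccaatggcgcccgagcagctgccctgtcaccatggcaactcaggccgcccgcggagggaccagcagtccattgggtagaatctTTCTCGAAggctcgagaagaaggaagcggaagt
Hspe1 (chr1:55087898-55088147, plus strand): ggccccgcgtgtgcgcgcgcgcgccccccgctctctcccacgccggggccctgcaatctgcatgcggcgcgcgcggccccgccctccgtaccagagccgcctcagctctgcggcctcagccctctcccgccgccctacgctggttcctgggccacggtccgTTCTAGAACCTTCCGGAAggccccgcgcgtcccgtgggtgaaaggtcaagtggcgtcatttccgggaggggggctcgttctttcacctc

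The windows of Hspa1a and Hspa1b were identical at 247 of 250 positions (98.8%). Each held 1 inward pair of units, GAANNTTC, 104 bases before the start, and 1 CCAAT box at 67 bases. The Hsph1 window held the outward pair TTCNNGAA 33 bases before the start, and the first Dnaja1 window an inward pair at 124 bases. Hspe1 and Hspd1 are divergent neighbours, and the Hspe1 window overlapped the second Hspd1 window by 215 bases. The shared stretch carried the full element of 3 units, GAANNTTCNNGAA, in 2 overlapping copies whose capitals begin 89 bases before the Hspe1 start. No Dnajb1 window held an exact pair of units. Searched on both strands, the element of 3 units occurred in 0.466% of 32817 windows of this length, the inward pair in 6.69%, the outward pair in 7.16% and CCAAT in 33.8%. TATAAA, which 12.4% of windows held, was in none of the members' windows. The full element contains both pairs, so those counts overlap, and a match describes letters and not binding.

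Hspa1a (ENSMUSG00000091971, chr17:34969190-34972156) and Hspa1b (ENSMUSG00000090877, chr17:34956436-34959238) are near-identical neighbours on mm10. Their coding sequences matched at 1919 of 1929 aligned columns (99.5%), whereas the transcribed sequence after the stop codon (810 and 643 bases) matched at 445 of 832 columns (53.5%). Reads from the coding part cannot be assigned to one copy with certainty, so the split between both genes is uncertain and their sum, called the pair below, is given too.

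The other members lie apart from these. Hsph1 (ENSMUSG00000029657) lies at chr5:149614287-149636376, Dnajb1 (ENSMUSG00000005483) at chr8:83608193-83612653 and Dnaja1 (ENSMUSG00000028410) at chr4:40722150-40737149. Hspa8 (ENSMUSG00000015656) lies at chr9:40800984-40810087, Hsp90aa1 (ENSMUSG00000021270) at chr12:110690605-110702728 and Hsp90ab1 (ENSMUSG00000023944) at chr17:45567775-45573271. Hspd1 (ENSMUSG00000025980, chr1:55077835-55088243, minus strand) and Hspe1 (ENSMUSG00000073676, chr1:55088132-55091307, plus strand) overlap at their starts, where reads cannot be told apart without strand.

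Across all kept barcodes, the inducible HSP70 genes were the members that differed most between the libraries. Hspa1a was at 22.1 counts per 1000000 UMIs (CPM) in WT (20.8 to 23.4) and 51.3 in KO (49.5 to 53.2), a ratio of 2.32 (2.17 to 2.49). Hspa1b was at 17.1 CPM in WT and 27.2 in KO, a ratio of 1.59 (1.47 to 1.73). These were the only members past 1.5-fold, and no member lay past 1.5-fold lower in KO. Among the 10593 genes with enough UMIs, 3.28% were past 1.5-fold higher in KO and 9.49% past 1.5-fold lower.

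Hspa8 and the cytosolic HSP90 genes lay closer together between the libraries. Hspa8, the major HSP70 of unstressed cells, was at 1294 CPM in WT and 1546 in KO, a ratio of 1.19 (1.18 to 1.21). Hsp90aa1, the stress-responsive cytosolic HSP90, was at 867 and 1008 CPM, a ratio of 1.16 (1.15 to 1.18). Its constitutive counterpart Hsp90ab1 was at 2804 and 3012 CPM, a ratio of 1.07 (1.07 to 1.08). All 3 were higher in the KO library by margins well outside counting error and below 1.5-fold.

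Of the co-chaperones, Dnajb1, which stimulates HSP70 and is itself heat-inducible, was at 70.8 CPM in WT and 81.7 in KO, a ratio of 1.15 (1.11 to 1.20). Dnaja1 was at 388 and 413 CPM, a ratio of 1.06 (1.04 to 1.08). Hsph1 was level between the libraries, at 38.9 CPM in WT and 38.4 in KO, with a ratio of 0.989 (0.931 to 1.05). In the mitochondrial chaperonin, Hspd1 was at 265 and 276 CPM, a ratio of 1.04 (1.02 to 1.07), and Hspe1 at 423 and 482 CPM, a ratio of 1.14 (1.12 to 1.16). Thus 9 of 10 members were higher in KO, with a median log2 ratio of 0.20 against -0.08 over all genes tested. Of those genes, 58.4% had a lower ratio than Hsph1, the lowest member, and 68.9% a lower ratio than Hspd1, the next lowest. Together the members took 0.619% of WT UMIs and 0.694% of KO UMIs.

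**Figure D1:**
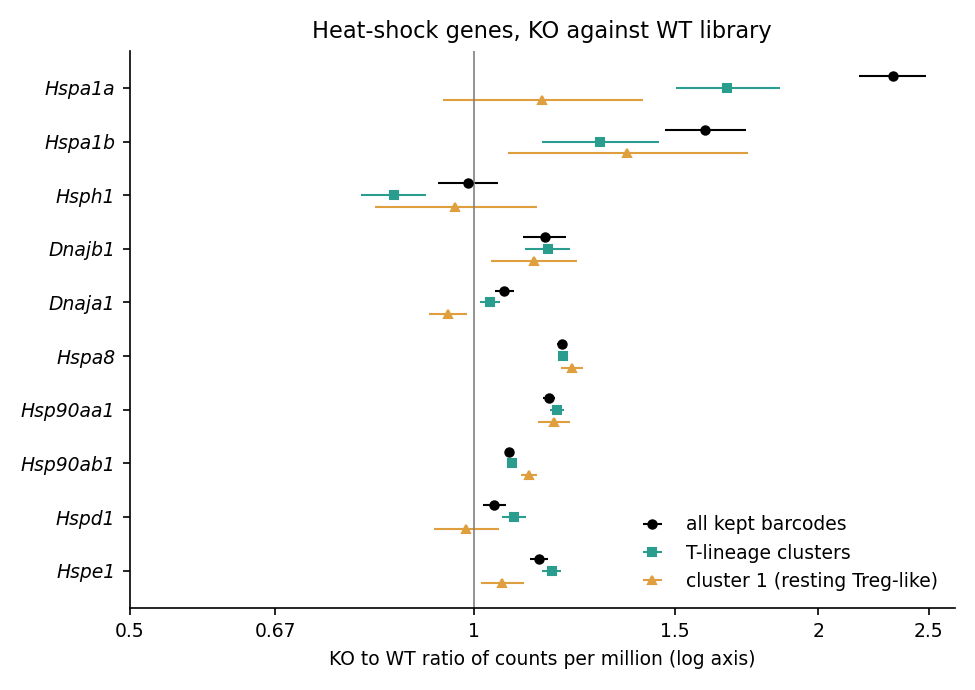
KO to WT ratio of CPM for each member (log axis), in all kept barcodes, in the T-lineage clusters and in cluster 1, with 95% counting intervals and a line at a ratio of 1. Hspa1a falls from 2.32 over all barcodes to 1.67 in the T-lineage and 1.15 in cluster 1, whereas Hspa8 stays between 1.19 and 1.22.

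Within the T-lineage clusters the pair differed less. Hspa1a was at 11.5 CPM in WT and 19.1 in KO, a ratio of 1.67 (1.5 to 1.85), and Hspa1b at 10.0 and 12.9 CPM, a ratio of 1.29 (1.15 to 1.45). Hsph1 was lower in KO there, at 38.4 CPM in WT and 32.7 in KO, a ratio of 0.851 (0.796 to 0.909). Only Hspa1a passed 1.5-fold, where 4.22% of 10248 genes passed higher and 9.26% lower, and the members' median log2 ratio was 0.22 against -0.06 over all genes. The T-lineage set holds clusters 2, 8, 9, 12 and 16, whose leading genes are haemoglobin, granule, nuclear RNA or macrophage genes. Without them, a choice made after seeing these data, the log2 ratio of Hspa1a was 0.54, which is under 1.5-fold, so no member passed, and that of Hspa1b was 0.38.

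Cluster 1, the resting Treg-like cluster, was the largest T-lineage cluster whose name rests on its markers and was of similar depth in both libraries (median 4212.5 UMIs in WT and 3581.5 in KO). There Hspa1a was at 14.8 CPM in WT and 17.0 in KO, a ratio of 1.15 whose interval (0.939 to 1.41) includes 1. Hspa1b was at 9.85 and 13.4 CPM, a ratio of 1.36 (1.07 to 1.74). Hspa8 was 1.22-fold (1.19 to 1.25), Hsp90aa1 1.18-fold (1.14 to 1.21) and Hsp90ab1 1.12-fold higher in KO (1.10 to 1.14). The KO to WT ratio of Dnaja1 was 0.949 (0.914 to 0.986). None of the 10 members passed 1.5-fold in cluster 1, where 1.54% of 7721 genes passed higher and 6.62% lower.

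The UMIs of the inducible pair were held by very few barcodes. The 1% of barcodes with the most of them held 68.3% of the pair's UMIs in WT (81 barcodes) and 74.3% in KO (138 barcodes). For the other members the same share was lower. It reached 21.3% in WT and 34.3% in KO for Hsph1, 24.1% and 24.7% for Hspd1, and 8.31% and 11.2% for Dnaja1. A single barcode held up to 71 UMIs of the pair in WT and 170 in KO, while 93.2% of WT and 91.6% of KO barcodes held none. Without those 1% of barcodes, the log2 ratio of Hspa1a was 0.89, against 1.22 with them, and that of Hspa1b was 0.46, against 0.67.

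**Figure D2:**
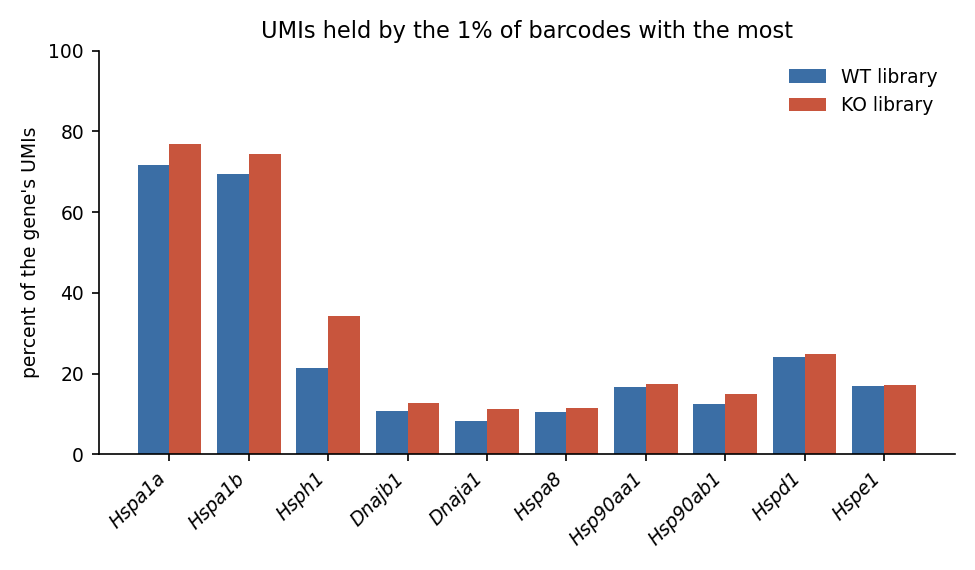
Percent of each member's UMIs held by the 1% of kept barcodes with the most UMIs of that gene, in the WT (81 barcodes) and KO library (138 barcodes). Hspa1a (71.6% and 77.0%) and Hspa1b (69.5% and 74.4%) stand far above the other 8 members, of which Hsph1 in KO is highest at 34.3%.

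Most of the barcodes rich in the pair were not of the T lineage. Barcodes with 10 or more UMIs of the pair, called rich below, numbered 56 in WT and 72 in KO. Of these, 37 in WT and 55 in KO lay in clusters of other lineages. The neutrophil-like clusters 13 and 14 made up 2.43% of WT and 1.39% of KO barcodes and held 35.8% of the pair's UMIs in WT and 55.4% in KO. Erythroid-like barcodes held 13% and 6.25%, and the T-lineage clusters, with 93.4% and 94.2% of barcodes, held 49.2% and 37.1%. Without the neutrophil-like clusters, a choice made after seeing these data, the log2 KO to WT ratio of Hspa1a was 0.62 and that of Hspa1b 0.26.

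The highest level of the pair was in cluster 13, led by the granule protease genes Elane, Prtn3, Ctsg and Mpo, with 380 CPM in WT and 1101 in KO, a ratio of 2.90 (2.66 to 3.16). Hspa1a alone was at 229 and 770 CPM and Hspa1b at 151 and 331 CPM. Hsph1, whose protein recharges HSP70, was at 43.3 CPM in WT and 188 in KO there, a ratio of 4.34 (3.40 to 5.59). The cluster's depth was alike in both libraries, at medians of 15642 and 15910 UMIs. Its barcodes were mixed. The 4 proteases summed to 6256 CPM in WT and 7499 in KO, but its median barcode had 191 and 624 CPM. Lyz2, Mcpt8 and Fcer1g were also leading genes. Raised against the T-lineage clusters were 9 of 9 neutrophil, 6 of 6 macrophage and 4 of 4 mast cell markers. What this mix adds to the ratios was not tested. Rich barcodes were 21 of 105 in WT (20%, 12.8 to 28.9) and 35 of 109 in KO (32.1%, 23.5 to 41.7), a difference of 12.1 percentage points (0.311 to 23.4). In the erythroid-like cluster 10 they were 12 of 210 in WT (5.71%) and 8 of 350 in KO (2.29%), a difference of -3.43 points (-7.59 to -0.19). The minimum of 10 UMIs does not adjust for depth, and cluster 10 had medians of 3979.5 UMIs in WT and 2118.5 in KO. Per UMI the pair was higher in KO there, at 122 CPM in WT and 162 in KO, a ratio of 1.33 (1.12 to 1.58). Cluster 14, led by Ngp, Camp and Lcn2 of later neutrophil granules, was at 54.6 CPM in WT and 625 in KO, a ratio of 11.4 (8.50 to 15.7) that rests on 2 rich barcodes of 91 in WT and 10 of 83 in KO. In KO the pair was also at 276 CPM in cluster 12, whose leading genes are Mpo and Prtn3 but whose T cell gene level was above the lineage limit. WT had only 10 barcodes in it.

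In the T-lineage clusters compared, the pair lay between 10.9 and 31.0 CPM, except in cluster 2 and cluster 9. Cluster 2 was shallow, with haemoglobin and granule genes leading, and was at 117 CPM in WT and 56.7 in KO, a ratio of 0.487 (0.392 to 0.610). Cluster 9, led by the nuclear RNA Gm26917, was at 142 CPM in WT and 48.9 in KO, a ratio of 0.344 (0.197 to 0.567). So the direction in these 2 clusters was opposite to that in clusters 13 and 14. The effector Treg-like cluster 3, which had 1789 WT but 85 KO barcodes, was at 15.0 CPM in WT and 31.0 in KO, a ratio of 2.07 (1.20 to 3.35).

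**Figure D3:**
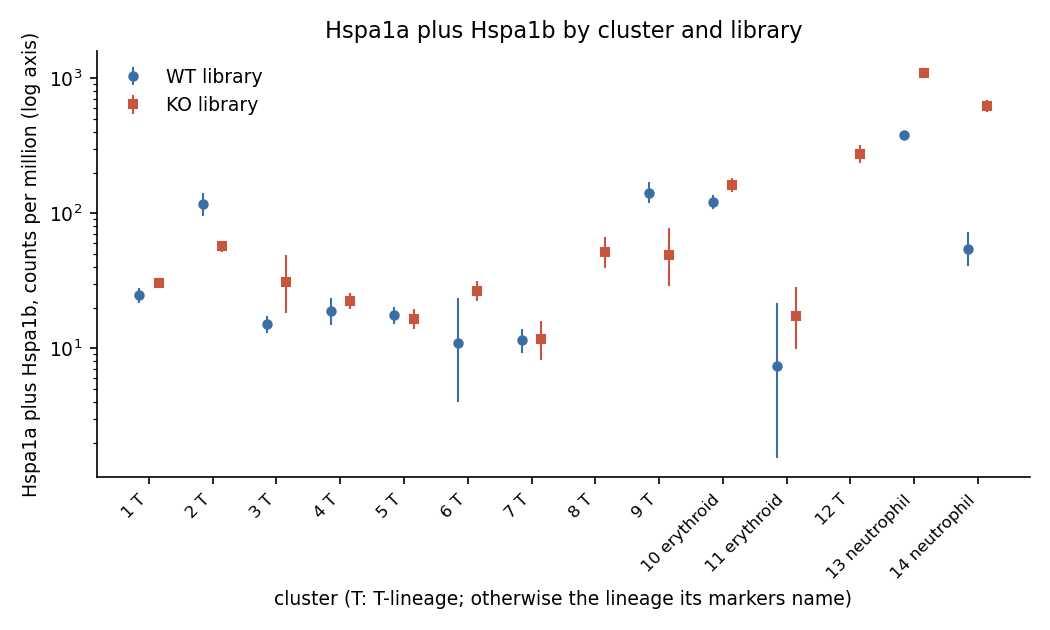
Summed CPM of Hspa1a and Hspa1b in each cluster with at least 50 barcodes in a library (log axis), with exact Poisson 95% intervals, for WT (circles) and KO (squares). Cluster 13 is highest in both libraries at 380 and 1101 CPM, and KO lies below WT in clusters 2 and 9.

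The difference also moved with depth inside the T lineage. Among T-lineage barcodes with 500 to 1000 UMIs (1084 in WT and 1085 in KO) the pair was at 81.0 CPM in WT and 57.7 in KO, a ratio of 0.712 whose interval (0.488 to 1.03) includes 1. With 1000 to 2000 UMIs (488 and 3954 barcodes) the pair was at 117 CPM in WT and 70.0 in KO, a ratio of 0.601 (0.472 to 0.772). With 2000 to 4000 UMIs the values were 45.5 and 34.2 CPM, a ratio of 0.752 (0.628 to 0.903). With 4000 to 8000 UMIs they were 21.8 and 30.6 CPM, a ratio of 1.41 (1.22 to 1.62). With 8000 to 16000 UMIs they were 17.4 and 19.9 CPM, a ratio of 1.14 (0.956 to 1.36). The pair was thus highest per UMI at 1000 to 2000 UMIs in both libraries and lower in each deeper bin. The part of depth in the pooled T-lineage ratio was not tested. Hspa8 was higher in KO in every one of these bins, at ratios of 1.15, 1.35, 1.30, 1.27 and 1.29 from the shallowest to the deepest. The HSP90 genes were not, and were lower in KO with 500 to 1000 UMIs. There Hsp90ab1 had a ratio of 0.822 (0.775 to 0.871) and Hsp90aa1 of 0.878 (0.788 to 0.979). In the deeper bins both were higher in KO, Hsp90ab1 by 1.19 to 1.26 and Hsp90aa1 by 1.17 to 1.48.

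To compare shares of barcodes, each barcode was thinned to 1000 UMIs, which left out 1136 WT and 1127 KO barcodes. The loss was uneven between clusters. Of the shallow cluster 2, 124 of 1017 WT but 3324 of 4017 KO barcodes remained. A UMI of Hspa1a or Hspa1b was then present in 161 of 6917 WT barcodes (2.33%, 1.99 to 2.71) and in 486 of 12640 KO barcodes (3.84%, 3.52 to 4.19), a difference of 1.52 percentage points (1.02 to 2.00). Before thinning the shares were 6.80% and 8.42%. Thinned to 500 UMIs, the difference was 0.52, and among barcodes with at least 1000 genes it was 0.74. In T-lineage clusters without 2, 8, 9, 12 and 16, a choice made after seeing these data, it was 0.50 (0.02 to 0.96). How much of the 1.52 points comes from the unequal mix of clusters was not tested.

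The T lineage was not the class with the highest share. In the T-lineage clusters 2.00% of thinned WT barcodes (1.68 to 2.38) and 3.38% of KO barcodes (3.06 to 3.72) had a UMI of the pair. Erythroid-like barcodes gave 3.70% in WT (1.71 to 6.91) and 6.05% in KO (4.17 to 8.43), and neutrophil-like barcodes 10.7% and 25.0%. Median depths before thinning were 5007 and 2701 UMIs for the T lineage and 4211 and 2189.5 UMIs for erythroid-like barcodes. No class that is sure to lack the pair could be measured. The T-lineage share lay below that of the erythroid-like barcodes in both libraries, so it is not read as expression or as a difference between genotypes. There were 1.15 UMIs of Hspa1a for each of Hspa1b in the T lineage and 1.57 in neutrophil-like barcodes of WT, against 1.48 and 2.30 in KO. Rich barcodes held 28.4% of the T-lineage UMIs of the pair in WT and 22.5% in KO. In cluster 1 the thinned shares were 2.11% in WT and 2.5% in KO, a difference of 0.38 points (-0.42 to 1.13) that was not detectable at this depth.

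Hspa8 and the cytosolic HSP90 genes were higher in KO in most clusters. Over the 12 clusters with at least 50 barcodes in both libraries, the ratio of Hspa8 lay above 1 with its whole interval in 11, that of Hsp90aa1 in 10 and that of Hsp90ab1 in 9. Such counts were not made for genes outside the members. Hspa8 spanned ratios from 0.980 in cluster 4 to 1.57 in cluster 11. Both HSP90 genes were lower in KO in the erythroid-like cluster 10, where Hsp90aa1 was at 2106 CPM in WT and 1845 in KO (0.876, 0.836 to 0.917) and Hsp90ab1 at 3714 and 3151 CPM (0.848, 0.819 to 0.878). Hsp90ab1 was also lower in the cycling-like cluster 5, with a ratio of 0.943 (0.928 to 0.958).

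The mitochondrial chaperonin genes were lower in KO in that cluster too. In cluster 10 Hspd1 was at 730 CPM in WT and 524 in KO (0.717, 0.659 to 0.779) and Hspe1 at 884 and 685 CPM (0.775, 0.720 to 0.834). In the neutrophil-like cluster 13 both were higher in KO, with ratios of 1.30 (1.19 to 1.43) and 1.38 (1.27 to 1.5). Hspd1 and Hspe1, whose windows overlap, followed each other across clusters and libraries, with a Pearson r of 0.96 of log2 CPM over 26 points that share libraries and depth. Hsp90ab1 and Hspa8 gave 0.97 over the same points, and Hspa1a and Hspa1b 0.95.

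Levels of Hsp90ab1, Hspd1 and Hsp90aa1 differed more between clusters than between libraries. In WT, Hsp90ab1 ranged from 660 CPM in the late erythroid-like cluster 11 to 4366 CPM in cluster 4, a T-lineage cluster with Nefh, Lad1 and Srm leading. In KO it ranged from 868 CPM in cluster 11 to 4924 CPM in cluster 13. Hspd1 in WT ranged from 54.6 CPM in cluster 11 to 730 CPM in cluster 10. The cycling-like cluster 5 had 1257 CPM of Hsp90aa1 in WT and 1326 in KO, above the 557 and 654 CPM of the resting Treg-like cluster 1.

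**Figure D4:**
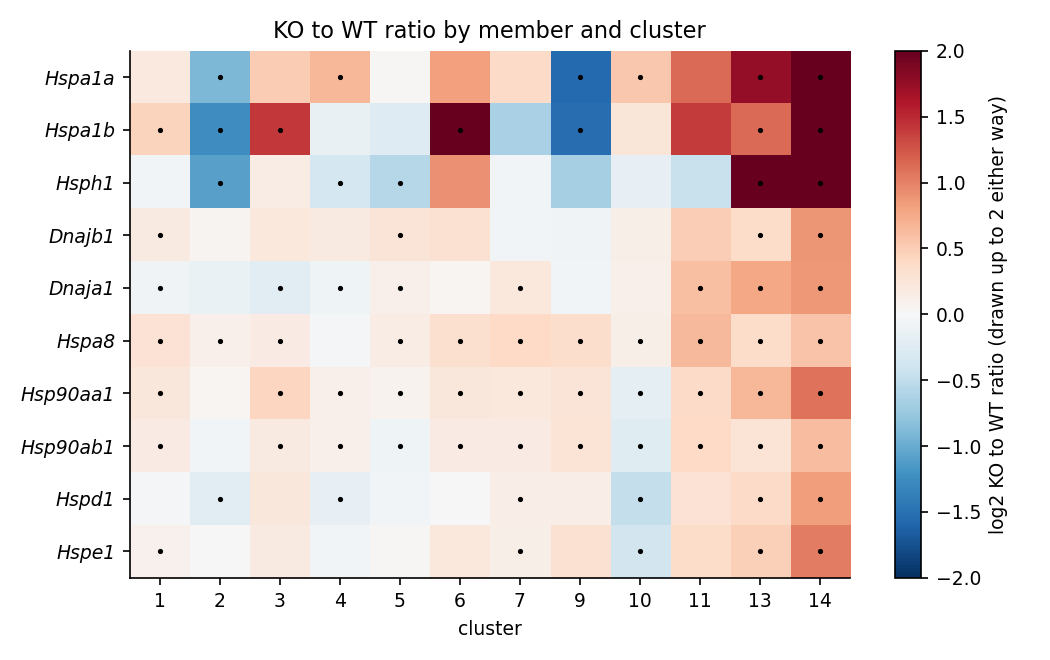
Log2 KO to WT ratio of each member in the 12 clusters with at least 50 barcodes in both libraries, with a dot where the 95% counting interval leaves out a ratio of 1. Hspa8 is red in all but cluster 4, cluster 14 is red for every member, and Hspa1a and Hspa1b are blue in clusters 2 and 9.

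The barcodes rich in the pair carried more of other heat-shock messages too. In the T-lineage clusters there were 19 rich barcodes in WT and 17 in KO, and their median depth (9997 and 5839 UMIs) was above that of the rest (5002 and 2699 UMIs). Hsph1 was at 252 CPM in the rich and 37.4 in the other WT barcodes, a ratio of 6.73 (5.09 to 8.75), and at 308 and 32.0 CPM in KO, a ratio of 9.61 (6.78 to 13.2). Hsp90aa1 was 2.91-fold (2.67 to 3.17) and 2.87-fold higher (2.57 to 3.19) in rich barcodes. The HSP40 gene Dnajb1 was 3.20-fold and 3.01-fold higher, and Hspd1 2.17-fold and 2.59-fold. Hspa8, Hsp90ab1 and Hspe1 gave ratios between 1.36 and 1.66. All 8 other members were higher in the rich barcodes of both libraries, with intervals above 1. The share of all genes with such intervals was not counted, so this count has no background beside it.

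Read against all genes, few others behaved so. Of 3193 genes that could be compared, 1.47% were past 1.5-fold higher in the rich T-lineage barcodes of both libraries and 5.79% past 1.5-fold lower, with median ratios of 0.960 and 0.874. Of the members, 7 had enough UMIs for that comparison (Hsph1 fell short in KO), and 4 passed in both, namely Dnajb1, Dnaja1, Hsp90aa1 and Hspd1. None of 7 measurable heat shock factors and further inducible genes passed, and their median ratios were 1.09 and 1.11. From the list of HSP70 and HSP90 partners 1 of 17 passed, Ptges3, the p23 co-chaperone of HSP90 (1.64 and 1.57). Of the immediate early genes 2 of 11 passed, Nr4a1 (3.36 and 1.58) and Jun (1.52 and 3.38). None of 12 subunits of the cytosolic chaperonin TRiC and prefoldin, none of 7 further mitochondrial chaperones and proteases and none of 9 endoplasmic reticulum (ER) chaperones passed higher, and the ER HSP70 Hspa5 was at 1.33 in both libraries.

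The rich T-lineage barcodes had less T cell RNA than the rest. The 9 T cell marker genes summed to 4191 CPM in rich and 6986 in other WT barcodes, and to 4003 and 6497 CPM in KO, with all 9 detected. The 9 neutrophil markers summed to 217 against 332 CPM in WT and to 616 against 834 CPM in KO. The proteases Elane, Prtn3, Mpo and Ctsg were at 8.69 CPM in the rich and 31.9 in the other WT barcodes, but at 535 and 88.4 CPM in KO, where 3 of the 17 rich barcodes were in cluster 12. Whether a second cell in the droplet contributed was not tested.

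Rich barcodes of cluster 13 were also higher in other members. The cluster is mixed, and whether its rich and other barcodes were of the same cell types was not tested. There the 35 rich KO barcodes were 9.14-fold higher in Hsph1 (6.69 to 12.7), 2.55-fold in Dnaja1 (2.27 to 2.87), 2.26-fold in Hspd1 (1.99 to 2.57) and 2.23-fold in Hsp90aa1 (2.09 to 2.37) than the 74 others. The 21 rich WT barcodes gave smaller ratios, 2.71 for Hsph1 (1.71 to 4.29) and 1.62 for Hsp90aa1 (1.49 to 1.75), and 1.26 for Dnajb1, whose interval (0.858 to 1.83) includes 1. Hsph1 and Hsp90aa1 were the 2 of 8 members past 1.5-fold in both libraries, where 1% of 7284 genes passed higher and 5.83% lower. Of 13 immediate early genes 1 passed higher, Jun (1.77 and 1.93), and 3 passed lower. The lower ones were Fos (0.622 and 0.383), Fosb (0.570 and 0.312) and Zfp36 (0.658 and 0.558). The medians of that list were 0.865 and 0.871.

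**Figure D5:**
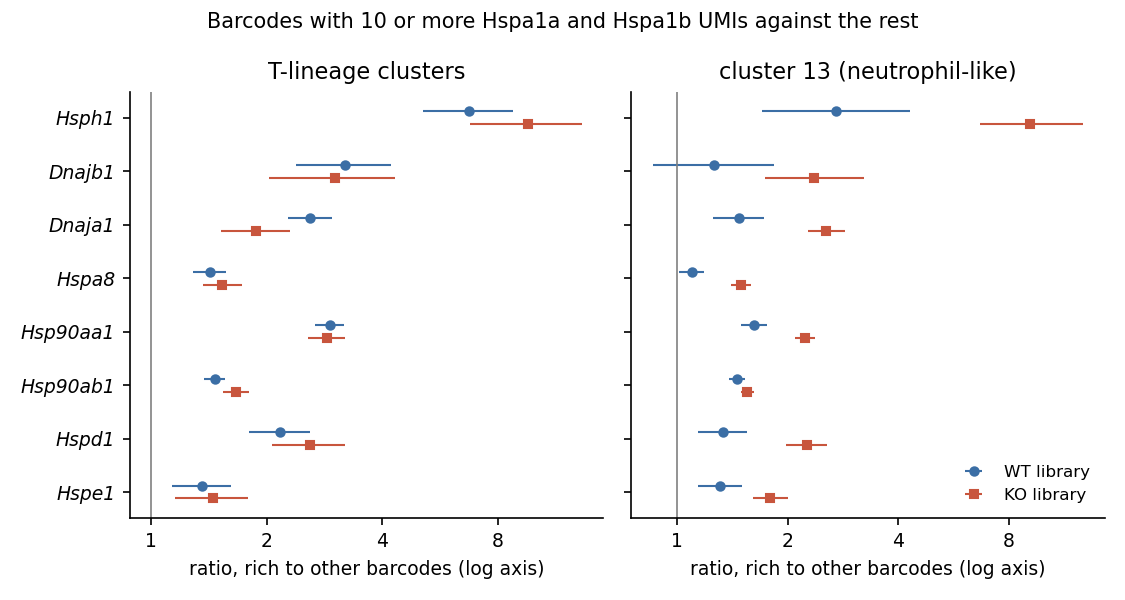
Ratio of CPM in barcodes with 10 or more UMIs of Hspa1a and Hspa1b to the other barcodes (log axis), for the other 8 members, in the T-lineage clusters (19 WT and 17 KO rich barcodes) and in cluster 13 (21 and 35). Lines are 95% counting intervals, and Hsph1 has the highest ratio in each library and panel.

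At the level of 1 UMI the picture was weaker. Among thinned T-lineage barcodes, Hspa1a and Hspa1b were found together 23.4 times as often as the product of their shares in WT (20 barcodes against 0.856) and 6.83 times in KO (25 against 3.66). Comparing thinned T-lineage barcodes with a UMI of the pair (129 in WT and 402 in KO) with those without, Hsp90aa1 gave a ratio of 1.79 in WT (1.51 to 2.10) and 1.19 in KO (1.08 to 1.32). Dnajb1 gave 2.28 in WT (1.43 to 3.45) and 1.27 in KO, where the interval (0.910 to 1.73) includes 1. The 10 genes with the highest ratio in both libraries, among 929 with enough UMIs, held no member. They were led by the nuclear RNA Gm26917 (4.32 in WT and 2.42 in KO), the splicing-related Rsrp1 (2.21 and 1.69) and the neutrophil gene S100a9 (1.65 and 2.13), and also held AY036118, Zfp36l2, Gadd45b, Birc6, Smad7, Hpf1 and Dusp1. The WT barcodes with the pair came from shallower droplets, with a median of 3972 UMIs before thinning against 5734.

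The genes whose pattern was most like that of the pair included some of myeloid cells. Over 26 points of cluster and library, the 8 genes of highest Pearson r with the log2 CPM of the pair, among 10583, were Csf1r (0.85), the receptor of macrophage colony-stimulating factor, Tmem205 (0.84), Ctbp2 (0.84), Tctex1d2 (0.83), Bach1 (0.83), Plac8 (0.82), the chemokine receptor Cxcr4 (0.82) and the haematopoietic factor Lyl1 (0.82). Of the other members, Hsp90aa1 came closest at 0.48 and Hsp90ab1 was lowest at 0.22. The points share 2 libraries and their depths, and Plac8 is also a leading gene of cluster 12.

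From 1% upward, the members' summed level was lower the higher the mitochondrial share of a barcode. In KO the 10 members summed to 7611 CPM in barcodes with 1 to 2% mitochondrial UMIs, 6942 CPM with 2 to 3%, 6271 CPM with 3 to 5% and, among barcodes that the filter left out, 5812 CPM with 5 to 10% and 4846 CPM above 20%. In WT the corresponding sums were 6958, 6156, 5552, 4962 and 4169 CPM. The 13 immediate early genes went the other way up to the bin of 5 to 10%, where they reached 4866 CPM in WT and 4168 in KO, from 2145 and 2745 CPM at 1 to 2%. Beyond that bin the immediate early genes were lower again, at 1894 CPM in WT and 2490 in KO above 20%. In WT the pair was also highest at 5 to 10%, at 58.8 CPM, against 29.7 at 1 to 2% and 25.7 above 20%. In KO the pair was highest up to 1%, at 134 CPM, with 51.5 at 1 to 2% and 70.6 at 5 to 10%.

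Chaperone and stress-response genes of 6 further lists, chosen with earlier results known, had medians closer to 0 than the members, except the immediate early genes. Over all genes tested the median log2 ratio was -0.08. Of 14 measurable genes of heat shock factors and further inducible genes, 8 were higher and 6 lower in KO, with a median log2 ratio of 0.03. None was past 1.5-fold higher and 1 was past it lower, Bag3, the HSP70 co-chaperone of stress-induced autophagy, at 3.21 CPM in WT and 1.96 in KO (0.611, 0.478 to 0.778). Hspa2, another HSP70, was at 0.758, and Ier5, a feedback partner of heat shock factor 1, was at 1.25. Hsf1 itself was at 16.2 CPM in WT and 18.6 in KO (1.15, 1.05 to 1.26). Hspb1 and Serpinh1 had too few UMIs.

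Among the 23 partners of HSP70 and HSP90, 13 were higher and 10 lower in KO, with a median log2 ratio of 0.06. Past 1.5-fold were 2 lower genes, Fkbp5, the glucocorticoid-inducible immunophilin, at 44.4 CPM in WT and 17.3 in KO (0.390, 0.362 to 0.420), and Bag2 at 6.42 and 4.25 CPM (0.662, 0.560 to 0.782). The highest ratios were those of Hspbp1 (1.29) and Fkbp4 (1.25). TRiC and prefoldin had 10 of 14 genes higher, from Cct4 (0.881) and Pfdn1 (0.902) to Cct7 (1.19) and Cct3 (1.24), with a median log2 ratio of 0.08.

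The lists of other compartments had medians near 0. Of 16 further mitochondrial chaperones and proteases, 6 were higher and 10 lower in KO, with a median log2 ratio of -0.03. Their lowest ratios were those of the protease Htra2 (0.736) and Afg3l2 (0.780), their highest those of the disaggregase Clpb (1.21) and Clpp (1.19). Of 12 ER chaperones 4 were higher and 8 lower, with a median of -0.06, from Hyou1 (0.706) and Pdia6 (0.791) to Dnajb9 (1.11) and Calr (1.19). None of these genes or of TRiC passed 1.5-fold.

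The immediate early genes, which also respond to cell handling, were the list with the highest median log2 ratio, 0.26. Of 13, 10 were higher in KO and 2 passed 1.5-fold, the phosphatase gene Dusp1 at 100 CPM in WT and 174 in KO (1.73, 1.68 to 1.79) and Nr4a1 at 41.5 and 68.2 CPM (1.64, 1.56 to 1.73). Egr1 (0.927) and Btg2 (0.947) were the lowest. They stood higher in the library in which Hspa1a and Hspa1b were higher, and what share handling had in either was not tested.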

How the data were processed

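The authors sorted CD4+ YFP+ 7AAD- spleen cells by their methods (YFP+ 7AAD- per the labels), made 1 droplet library per genotype and deposited raw UMI counts per gene and barcode, made with Cell Ranger 5.0.1 on mm10 per the submitters' processing notes. The deposited counts were summed over barcodes of 300 genes or more and a mitochondrial share of 5% or less, and scaled to 1000000 UMIs per set of barcodes (CPM). The members and lists were chosen with earlier results of these data known. No doublets were removed, except in an alternative.

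Sums have exact Poisson, shares Clopper-Pearson, ratios conditional binomial and differences Newcombe intervals at 95%, for counting error only. They were tested only on simulated independent counts, so the uneven spread of the pair's UMIs between barcodes was not covered. Log2 ratios had 0.5 UMIs added to each sum, and genes needed 200 UMIs over both libraries. A gene compared in rich barcodes needed 5 UMIs there at the level of the rest.

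Clusters came from 2000 variable genes without the members, 30 principal components, 20 neighbours and the Leiden method at resolution 0.5 (scanpy 1.11.5, igraph 0.11.9). Clusters were set apart as other lineages by the mean CPM of Cd3e, Cd3d, Cd3g, Trac, Trbc1 and Trbc2. Those clusters had under 50% of the same mean over all kept barcodes. Scrublet's own threshold marked 0.0248% of WT and 0 KO barcodes and so did not work, and the 5% and 8% of highest scores were removed instead. Named were the members, from each list the 2 highest and 2 lowest ratios (1 of them is not reported here), the 8 genes most like the pair, and the 10 of highest ratio in barcodes with the pair. Others, and the minimum of 10 UMIs for rich barcodes, were chosen after values were seen.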

Additional observations from a re-analysis of the deposited data

Results flagged for a closer look

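Each result here is a member whose KO to WT ratio of CPM lay below 1 in one cluster and above 1 in another, with both 95% counting intervals leaving out 1. The difference between clusters was not tested, since there is 1 library per genotype. The highest ratio was in the neutrophil-like cluster 14 (91 WT and 83 KO barcodes) each time, where 2 WT and 10 KO barcodes were rich in Hspa1a and Hspa1b. Against the nuclear RNA-led cluster 9, Hspa1a had ratios of 0.339 (cluster 9) and 10.6 (cluster 14), Hspa1b 0.349 and 13.9, and their sum 0.344 and 11.4. The HSP110 gene Hsph1 had 0.472 in the shallow cluster 2 and 6.02 in cluster 14. Dnaja1 had 0.861 in the effector Treg-like cluster 3 and 1.82 in cluster 14. Against the erythroid-like cluster 10, Hsp90aa1 had 0.876 and 2.13 in cluster 14, Hsp90ab1 0.848 and 1.53, Hspd1 0.717 and 1.79, and Hspe1 0.775 and 2.04.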

How the results depend on the processing

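The members' median log2 ratio (0.20) was positive under all 11 alternatives. It was 0.27 with scaling by the median ratio and 0.15 for the mean of single-barcode CPM. Otherwise it stayed between 0.154 and 0.225, the medians of the members' lower and upper interval limits. These limits are not a counting interval of the median itself. The difference in the share of barcodes with Hspa1a or Hspa1b (1.52 points) was positive throughout, and was 0.74 with at least 1000 genes, 0.52 with thinning to 500 UMIs and 0.50 in T-lineage clusters without clusters 2, 8, 9, 12 and 16, the last chosen after seeing the data. Over 120 single-member values 3 changed direction, all of Hsph1 (log2 ratio -0.02), at 0.059 with scaling by the median ratio, 0.055 with at least 1000 genes and 0.017 without the highest doublet scores. Hspa1a ranged from 0.54 to 1.37 and Hspa1b from 0.055 to 0.79. No paired analysis was possible because each genotype has 1 library, so no replicate could be left out either.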
